A study of Mus musculus with 4 samples.

Results

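Antibodies can cross the intestinal epithelium in both directions, and 3 genes encode chains of the receptors that carry them. Transport itself was not measured here. Fcgrt encodes the heavy chain of the neonatal Fc receptor (FcRn), B2m encodes beta-2-microglobulin, the light chain that FcRn shares with class I antigen-presenting molecules, and Pigr encodes the polymeric immunoglobulin receptor. These 3 genes were looked up by symbol among the 32227 features of the count matrices, and all 3 were present in each of the 4 libraries, as Fcgrt (ENSMUSG00000003420), B2m (ENSMUSG00000060802) and Pigr (ENSMUSG00000026417). They were described by library, region and cell class, and Fcgrt was compared with B2m cell by cell at equal depth.

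In suckling rodents FcRn binds milk IgG at the acidic apical surface of enterocytes, carries it through the cell in endosomes and releases it at the basolateral side, which gives the young passive immunity. FcRn cannot leave the endoplasmic reticulum properly without beta-2-microglobulin. pIgR works in the opposite direction: it picks up dimeric IgA and pentameric IgM made by plasma cells below the epithelium and delivers them into the lumen as secretory antibody.

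The cells were epithelium of the ileum and of the jejunum of 2 wild-type (WT) mice at postnatal day 6 (P6), with no further treatment, each mouse giving 1 library per region. Replicate 1 of each region was the mouse labelled male (mouse 1) in batch 1, and replicate 2 the mouse labelled female (mouse 2) in batch 2, so that mouse, labelled sex and batch cannot be told apart. In CPM (UMIs of a gene scaled to the same total in every sum of cells), the X inactivation transcript Xist stood at 575 and 466 in replicate 1 (ileum, then jejunum) but at 0.705 and 0.906 in replicate 2, and the Y-linked Eif2s3y at 0.0115 and 0.119 but 88.1 and 67.0, so by these 2 genes all 4 libraries went against their sex label. The Y-linked Kdm5d split in the same way, at 0.505 and 0.85 CPM in replicate 1 against 17.6 and 12.9 in replicate 2. Ddx3y and Uty did not separate the mice so clearly. Ddx3y was at 113 and 84.7 CPM in replicate 1 against 235 and 190.4 in replicate 2. Uty was at 1.26 and 142 CPM in replicate 1 against 127 and 78.2 in replicate 2. No kept cell barcode was shared between libraries. After filtering, 7300 and 8502 ileum cells and 8997 and 5723 jejunum cells remained, of which 6323, 7455, 7768 and 4820 were enterocyte-like (ileum replicates 1 and 2, then jejunum replicates 1 and 2, the order used for all lists of 4 values here). The ileum libraries were deeper (medians of 12048 and 10916 against 4690 and 5884 unique molecules, or UMIs, per cell), and the jejunum libraries had the higher median mitochondrial shares (6.37% and 9.94% against 3.61% and 3.74%). Each UMI marks 1 captured transcript end, so levels of different genes were not divided by gene length.

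The promoters of the 3 genes are shown because their levels separated by cell class and because interferon, which induces class I genes, and the E-box factors USF1 and USF2, which act on Pigr, are known regulators. The RefSeq sequences (GRCm38.p6, an older build than the GRCm39 named for the counts) cover the 250 bases before each annotated start, 5′ to 3′ on the gene's strand. They lie at chr7:45103823-45104072 (minus strand) for Fcgrt, chr2:122147437-122147686 (plus strand) for B2m and chr1:130826434-130826683 (plus strand) for Pigr. Capitals mark a match to an interferon-response core on either strand (GAAA, any 2 bases, GAAA), or to the E-box CACGTG, which reads the same on both strands.
Fcgrt: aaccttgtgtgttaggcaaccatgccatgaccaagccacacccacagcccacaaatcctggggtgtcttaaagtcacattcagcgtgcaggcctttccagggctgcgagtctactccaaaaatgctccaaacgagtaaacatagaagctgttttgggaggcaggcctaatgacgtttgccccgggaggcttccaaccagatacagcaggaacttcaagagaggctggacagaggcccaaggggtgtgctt
B2m: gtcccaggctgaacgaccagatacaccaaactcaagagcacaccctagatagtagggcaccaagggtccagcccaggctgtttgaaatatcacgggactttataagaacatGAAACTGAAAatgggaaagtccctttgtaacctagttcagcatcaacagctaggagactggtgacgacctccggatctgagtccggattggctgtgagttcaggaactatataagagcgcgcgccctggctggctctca
Pigr: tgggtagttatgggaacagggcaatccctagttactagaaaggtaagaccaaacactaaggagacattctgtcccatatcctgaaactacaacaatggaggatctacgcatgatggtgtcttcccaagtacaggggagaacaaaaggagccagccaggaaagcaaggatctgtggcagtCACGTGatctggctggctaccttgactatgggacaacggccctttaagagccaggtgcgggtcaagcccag
The interferon-response core stood once in the B2m window, from 139 to 130 bases before the start, and in neither of the others. The E-box stood once in the Pigr window, from 71 to 66 bases before the start, and in neither of the others. Of all 32851 promoter windows of this length, 2.98% held the first motif and 6.02% the second. Among the genes that work with B2m, the interferon-response core was found in 2 of 16 windows of class I heavy chains (H2-T22 and H2-T23) and in 0 of 12 windows of class I folding and peptide-loading genes. A match describes letters only.

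Fcgrt was far higher in jejunal than in ileal enterocyte-like cells. Its level was 967 and 1105 CPM in the 2 ileum libraries and 4157 and 3955 CPM in the 2 jejunum libraries. Within each mouse the jejunum was 4.30-fold and 3.58-fold above the ileum. The means were 1036 ± 97.5 CPM in the ileum and 4056 ± 143 CPM in the jejunum (SD, n = 2 libraries each), a log2 fold change of -2.07 ± 0.17 (SE, ileum over jejunum) with an adjusted p of 0.0153 by edgeR's quasi-likelihood test. At this threshold (adjusted p under 0.05) 6.95% of the 19668 genes tested were called in either direction, and 2.93% were called as lower in the ileum. At an equal 2000 UMIs per cell, the enterocyte-like cells held means of 1.91, 2.39, 9.54 and 8.55 Fcgrt UMIs, and 73.5%, 81.1%, 99.2% and 99.1% of them had at least 1 (94.2%, 96.3%, 99.5% and 99.6% before thinning). The median cell of the jejunum had 9 and 8 Fcgrt UMIs in 2000, and the median cell of the ileum 1 and 2.

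B2m followed Fcgrt with a smaller step. It was at 735, 719, 1473 and 1734 CPM, and the jejunum was 2.00-fold and 2.41-fold above the ileum within the mice. The log2 fold change was -1.25 ± 0.17 (adjusted p = 0.0239, edgeR). Without ileum replicate 1 the change was -1.22 and the adjusted p 0.0674.

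Since FcRn needs both chains, the number of Fcgrt UMIs per B2m UMI was taken in each library. In enterocyte-like cells the ileum libraries had 1.32 and 1.54 and the jejunum libraries 2.82 and 2.28. The difference was -0.83 on the log2 scale, and the two-sided exact permutation test over the 3 ways to pair 4 libraries gave p = 0.333, the smallest p this design allows. In stem/progenitor-like cells the same ratio was lower, at 0.692, 0.689, 1.37 and 1.37.

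Pigr was also lower in the ileum of each mouse, but the mice themselves stood far apart. Enterocyte-like cells held 103 CPM in the ileum and 327 CPM in the jejunum of mouse 1, and 18.7 and 81.9 CPM in mouse 2. The jejunum of mouse 2 thus lay below the ileum of mouse 1, and the regions overlapped. The log2 fold change of -1.86 ± 0.91 was not called (adjusted p = 0.239, edgeR). With the animal as a block, which the shared origin of the segments allows, it was -2.0 ± 0.15 with an adjusted p of 0.00387, in a fit that called 15.1% of genes. Mouse 1 was 5.53-fold above mouse 2 in the ileum and 3.99-fold in the jejunum, and by the smaller of these 2 ratios Pigr ranked 15 among 6900 genes of at least 20 CPM. Fcgrt (0.875-fold and 1.05-fold) and B2m (1.02-fold and 0.849-fold) did not differ between the mice in this way. With 1 animal each, the difference between the mice has no test.

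**Figure D1:**
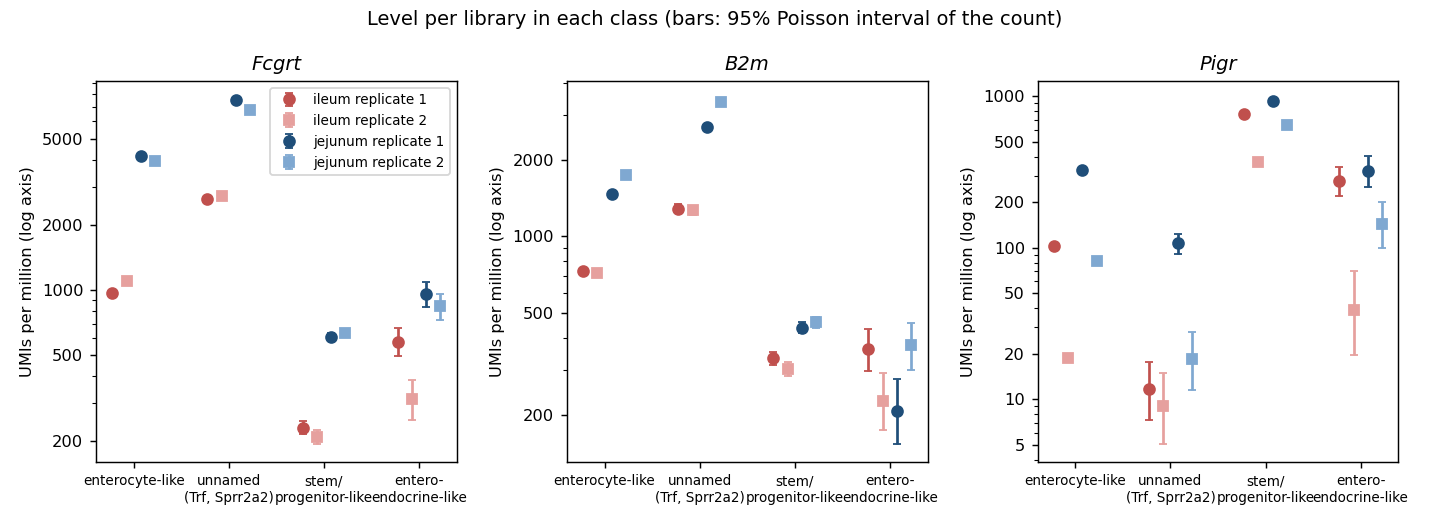
Level of Fcgrt, B2m and Pigr in each library (points; CPM of the class sum, log axis, with 95% Poisson intervals that cover counting error only) in 4 classes of cells. Fcgrt and B2m were highest in the unnamed cluster and in enterocyte-like cells, Pigr in stem/progenitor-like cells, and the jejunum libraries lay above the ileum libraries for Fcgrt in every class shown.

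The stem/progenitor-like cells, 2 clusters led by crypt and cell-division genes such as Olfm4, Lgr5 and Mki67, held more Pigr and less Fcgrt and B2m than the enterocyte-like cells of the same library. Classes were made from the RNA of the same cells, with the 3 genes left out of the variable genes, so the differences between classes are a description. Fcgrt was at 231, 209, 605 and 631 CPM there, between 14.6% and 23.9% of the enterocyte-like level of the same library. B2m was at 334, 304, 440 and 461 CPM, between 26.6% and 45.5% of that level. Pigr was at 765, 367, 939 and 645 CPM, above the enterocyte-like level in every library, by 2.87-fold (jejunum replicate 1) to 19.7-fold (ileum replicate 2). At 2000 UMIs per cell 73.4%, 49.8%, 82.4% and 70.5% of stem/progenitor-like cells had a Pigr UMI, against 19.1%, 4.42%, 41.5% and 15.1% of enterocyte-like cells.

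Free RNA and mixed cells set a limit on the low values. Of 6 absorptive-cell genes (Apoa1, Apoa4, Alpi, Lct, Anpep, Cubn), the 1 that was lowest in stem/progenitor-like cells stood at 12.7%, 10.0%, 12.0% and 6.95% of its enterocyte-like level. This bounds what carry-over can add only if its RNA has the proportions of enterocyte-like cells, which was not tested. The Fcgrt shares of 23.9%, 18.9%, 14.6% and 16.0% lay above it in each library. Fcgrt in unnamed cluster 6 stood at 2.71, 2.45, 1.81 and 1.71 times its enterocyte-like level. Immune-like cells, which are not known to make pIgR, numbered only 9, 11, 19 and 14, and at 2000 UMIs 11.1%, 10.0%, 11.1% and 8.33% of them had a Pigr UMI, with exact 95% intervals of 0.281% to 48.2%, 0.253% to 44.5%, 1.38% to 34.7% and 0.211% to 38.5%. Of the enterocyte-like shares, that of jejunum replicate 1 (41.5%) lay above its interval, and that of ileum replicate 2 (4.42%, interval 3.95% to 4.92%) lay below the immune-like share, which there is 1 cell of 10. Larger groups of cells gave a lower share in that library: clusters 11 and 15 of the enterocyte-like class had a Pigr UMI in 0.223% (interval 0.00565% to 1.24%) and 0.269% (0.00681% to 1.49%) of cells, and the unnamed cluster described further on in 2.09% (0.906% to 4.07%). Clusters 4 and 17 had one in 22.9% and 45.0%. Before thinning, 43.1%, 13.9%, 65.2% and 31.7% of enterocyte-like cells had a Pigr UMI, at median depths of 14175, 12422, 5106 and 6263 UMIs against 7382, 3288, 5061 and 6273 in immune-like cells.

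Among stem/progenitor-like cells Fcgrt was again lower in the ileum. The jejunum was 2.62-fold and 3.01-fold above the ileum, and the log2 fold change was -1.53 ± 0.14 (adjusted p = 0.00106, edgeR). In this class 2.82% of 12962 genes were called, and 1.15% were called as lower in the ileum. Carry-over from enterocyte-like cells, bounded under the same condition at 12.7%, 10.0%, 12.0% and 6.95% of their level, would bring their regional step with it. The Fcgrt shares were 23.9%, 18.9%, 14.6% and 16.0%, and the part of carry-over in the Fcgrt change was not tested. For B2m the change was -0.54 ± 0.13 (adjusted p = 0.0701) and for Pigr -0.53 ± 0.29 (adjusted p = 0.430), and neither was called. With no filter on low counts both were (adjusted p = 0.0201 for B2m and 0.0154 for Pigr), DESeq2 called B2m (adjusted p = 0.0169), and Pigr was called without ileum replicate 1 (-1.12, adjusted p = 0.00372) or jejunum replicate 2 (-0.79, adjusted p = 0.00576). With the animal as a block both were called, at -0.54 ± 0.11 (adjusted p = 0.00184) and -0.59 ± 0.12 (adjusted p = 0.00209), in a fit that called 10.1% of genes. For Fcgrt the result rested on the clustering. Where cells were clustered without integration, the change in the cells then named stem/progenitor-like was -0.21 (adjusted p = 0.547, edgeR). Of these cells, 1210 lay in 2 clusters that met the naming rule, with 4 and 9 stem/progenitor markers, but held none among their leading genes. Without them the change was -1.87 (adjusted p = 0.000561, edgeR), by a rule chosen after seeing the data.

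In the main fit the regional step was steeper in enterocyte-like than in stem/progenitor-like cells for all 3 genes. The interaction of region and class, fitted with each library as a block, was -0.56 ± 0.15 for Fcgrt (adjusted p = 0.0258), -0.71 ± 0.15 for B2m (adjusted p = 0.00473) and -1.40 ± 0.36 for Pigr (adjusted p = 0.0180), where a negative value means a deeper fall in the ileum of enterocyte-like cells. This fit called 9.26% of 19211 genes. Carry-over into stem/progenitor-like cells was not taken off in it. By the same edgeR test Fcgrt was not called without the highest doublet scores (-0.33, adjusted p = 0.173). Nor was it without integration where a leading marker was needed (-0.14, 0.690). Pigr was not called at a mitochondrial share under 10% (-1.16, 0.0649) or without integration (-1.16, 0.0741). The Fcgrt value was lost without ileum replicate 1 (-0.39, adjusted p = 0.178), without jejunum replicate 1 (-0.54, 0.0613) or without jejunum replicate 2 (-0.57, 0.0817), and the B2m value without jejunum replicate 2 (-0.57, 0.0693).

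Enteroendocrine-like cells, the hormone cells marked by Chga, Chgb and Cck, were few, with 72, 71, 68 and 46 cells. Fcgrt was at 578, 313, 959 and 840 CPM, and the change of -1.01 ± 0.30 was not called (adjusted p = 0.0916), while it was with the animal as a block (-1.07, adjusted p = 0.0410). B2m, at 362, 228, 208 and 375 CPM, and Pigr, at 278, 39.2, 321 and 144 CPM, overlapped between the regions (changes of 0.01, adjusted p = 0.991, and -0.52, adjusted p = 0.743). Of 6037 genes tested in this class 2.78% were called. Over all kept cells, where 7.49% of 20368 genes were called, the changes were -1.95 for Fcgrt (adjusted p = 0.0126), -1.15 for B2m (0.0221) and -1.67 for Pigr (0.205, and 0.00838 with the animal as a block). Such a sum cannot tell fewer cells of a type from less RNA per cell.

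Within the enterocyte-like class the 3 genes were graded. Of its clusters, 15 held at least 30 cells in every library, and in all 15 each of the 3 genes was lower in the ileum than in the jejunum of the same mouse. The log2 differences ran from -2.88 to -1.09 for Fcgrt, from -1.57 to -0.35 for B2m and from -3.96 to -0.36 for Pigr. Clusters held different shares of the libraries, and the cells of cluster 15, led by Reg3g and Reg3b, were almost all from the ileum (481 and 372 against 6 and 4). The cluster with the most Pigr was cluster 17 (led by Celf2 and Rmrp), at 1090, 345.5, 1402 and 553 CPM, where Fcgrt was at 331, 385, 1448 and 1448 CPM. Its name is uncertain: it passed 2 stem/progenitor markers, and its enterocyte markers had a mean log2 of -0.49 against the other cells. Without integration, a cluster that shared the leading genes Celf2, Rmrp and Fsip1 was named stem/progenitor-like. The values across clusters given below include cluster 17. The cluster with the least Pigr was cluster 11 (led by Sprr2a2 and 3300005D01Rik), at 5.31, 1.56, 51.3 and 12.0 CPM, with Fcgrt at 2042, 2315, 5474 and 4923 CPM. Across these 15 clusters the Spearman correlation of Fcgrt with Pigr was -0.84, -0.87, -0.38 and -0.59 in the 4 libraries, and that of Fcgrt with B2m was 0.59, 0.58, 0.84 and 0.81. The clusters of 1 library share its depth and its free RNA, and these values are a description.

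The highest Fcgrt and B2m of any cluster stood in cluster 6, which stayed unnamed and was led by Trf, Sprr2a2 and Nt5e. Its 378, 433, 576 and 337 cells held 2620, 2710, 7536 and 6756 CPM of Fcgrt and 1286, 1264, 2671 and 3366 CPM of B2m. Pigr was at 11.7, 9.0, 107 and 18.4 CPM in it. These cells were shallow, with medians of 4035, 3299, 2522 and 3387 UMIs against 14175, 12422, 5106 and 6263 in enterocyte-like cells. Their median mitochondrial shares were higher, at 6.24%, 6.37%, 11.2% and 13.4% against 3.51%, 3.61%, 5.90% and 9.94%. Nt5e is known from the tip of the adult villus. In enterocyte-like and unnamed cells binned by the summed UMIs of 6 adult tip genes (Nt5e, Ada, Slc28a2, Creb3l3, Klf4, Egfr) at 2000 UMIs per cell, mean Fcgrt went from 1.52 and 2.19 at 0 tip UMIs to 2.60 and 2.92 at 3 or more in the ileum, and from 11 and 9.34 to 9.21 and 8.41 in the jejunum. The order of the bins thus ran in opposite directions in the 2 regions, a difference that was not tested.

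**Figure D2:**
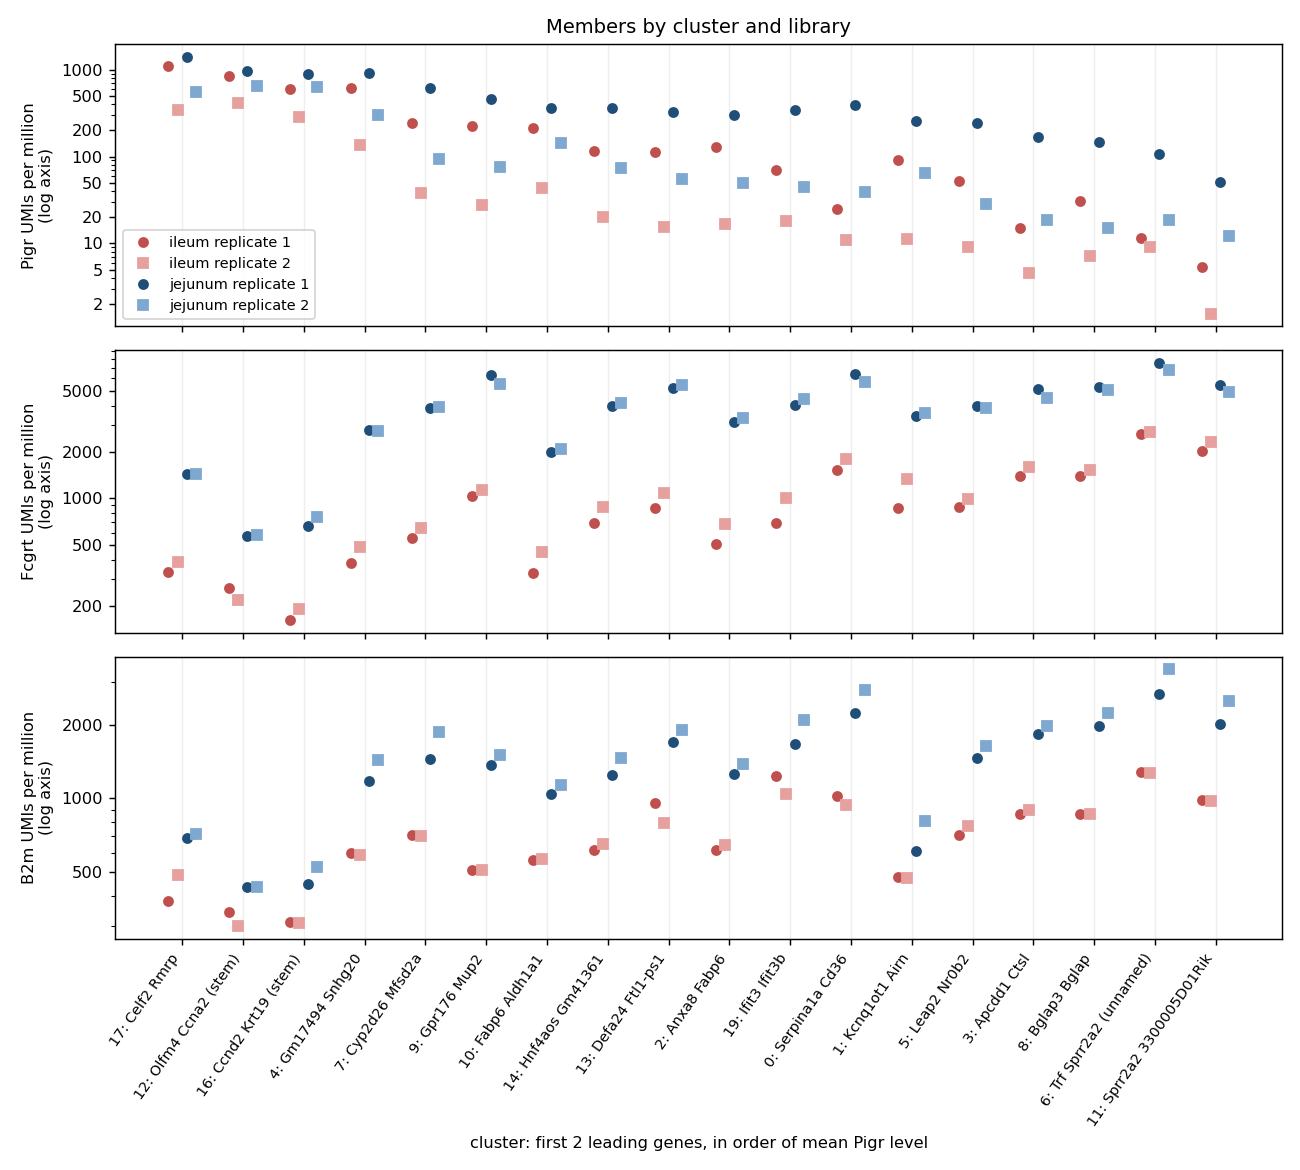
Pigr, Fcgrt and B2m (CPM, log axes) in each library (points) for the 15 enterocyte-like clusters with at least 30 cells per library, the 2 stem/progenitor-like clusters and unnamed cluster 6, ordered by mean Pigr. By the mean over libraries, Fcgrt and B2m were lowest in the 3 clusters at the left, where Pigr was highest, and within each cluster the jejunum point of a mouse lay above its ileum point for each gene.

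A group of 267 enterocyte-like cells (cluster 19; 112, 38, 70 and 47 cells), singled out after its values were seen, was led by the interferon-induced genes Ifit3, Ifit3b and Iigp1. B2m was at 1237, 1038, 1664 and 2082 CPM there. In both ileum libraries this was the highest B2m level among the clusters of the class with at least 30 cells in the library, and in the jejunum it was not. Fcgrt was at 696, 1000, 4054 and 4434 CPM and Pigr at 70.5, 18.0, 339 and 44.0 CPM, neither of them at the top of the class in any library.

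Cell by cell, at equal total depth, the correlation of Fcgrt with B2m was higher in the jejunum than in the ileum. Over enterocyte-like cells thinned to 2000 UMIs, the Spearman correlation was 0.15 and 0.10 in the ileum (6279 and 7222 cells) and 0.33 and 0.34 in the jejunum (7151 and 4624 cells), and Pearson's r on the log scale was 0.15, 0.10, 0.33 and 0.36. Cells of 1 library share their source, so no p is given, and the ileal values are too weak, at 1 or 2 UMIs per cell, to be read as a relation. Equal total depth did not give equal counts of the genes: mean B2m was 1.44, 1.38, 3.13 and 3.70 UMIs, and Fcgrt differed more. Low counts weaken a correlation, and the ileum mean at 4000 UMIs was 0.210 against 0.227 for the jejunum at 1000. The part of the counts in the regional difference was not tested. Jejunal cells with 0 or 1 Fcgrt UMI held means of 1.47 and 1.53 B2m UMIs, and those with 10 or more held 3.75 and 4.53. In the ileum, cells with 0 or 1 Fcgrt UMI held 1.27 and 1.23 B2m UMIs, and those with 5 to 9 held 1.81 and 1.65. At like Fcgrt counts of 5 to 9, jejunal cells held 2.86 and 3.55 B2m UMIs, above both ileum libraries. Within single clusters of at least 100 such cells the correlation was lower, with medians of 0.06 and 0.04 for the ileum libraries and 0.16 and 0.12 for the jejunum libraries.

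**Figure D3:**
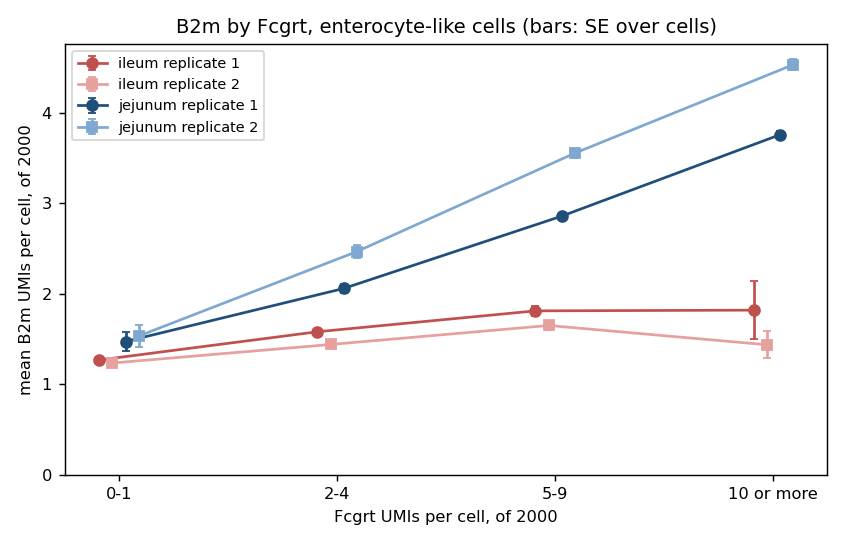
Mean B2m UMIs per cell (bars: SE over cells, which are not replicates) against Fcgrt UMIs per cell in 4 bins, for enterocyte-like cells of each library thinned to 2000 UMIs. The jejunum lines climb from 1.47 and 1.53 to 3.75 and 4.53, while the ileum lines stay between 1.23 and 1.82.

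B2m was not the gene most like Fcgrt. Among 1706 other genes with a mean of at least 0.2 UMIs per thinned cell in every library, B2m ranked 83, 128, 25 and 21 by its correlation with Fcgrt in the 4 libraries. The median correlation of these genes lay between -0.02 and 0.00. The 5 genes with the highest lowest value over the libraries were Apoa4 (0.49 to 0.56), Gpx3 (0.45 to 0.58), Lgmn (0.44 to 0.56), Apoa1 (0.42 to 0.58) and Apoc2 (0.42 to 0.61). Apoa4, Apoa1 and Apoc2 encode apolipoproteins, Gpx3 a secreted glutathione peroxidase and Lgmn the lysosomal protease legumain. Pigr correlated negatively with Fcgrt (-0.21, -0.10, -0.12 and -0.23) and with B2m (-0.08, -0.03, -0.06 and -0.14). The 5 genes most like Pigr were Rpsa, Zfp791, Celf2, Rps4x and Rpl32, with lowest values from 0.14 to 0.19, 3 of them genes of ribosomal proteins. At a mean of 0.05 to 0.77 Pigr UMIs per cell these correlations are weak, and Celf2 and Zfp791 are also leading genes of clusters in which Pigr was high.

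Some partners of B2m in antigen presentation were lower in the ileum as well, 4 of 15 heavy chains and 7 of 14 loading genes tested. Of all genes tested in enterocyte-like cells, 2.93% were called as lower. The list of class I heavy chains held 21 genes, of which 18 were in the features and 15 were tested in enterocyte-like cells. Of these, 4 fell in the ileum and 0 rose, with a median log2 change of -0.71 against -0.01 over all genes tested. H2-K1, a classical class I chain, was at 868, 843, 1430 and 1565 CPM and changed by -0.92 ± 0.15 (adjusted p = 0.0319). H2-Q2 (-1.61 ± 0.19) and H2-Q1 (-1.66 ± 0.31) also fell, as did H2-T23, below 20 CPM in both regions. H2-D1, another classical chain, was at 448, 381, 442 and 443 CPM, a change of -0.20 ± 0.14 (adjusted p = 0.364). At an unadjusted p under 0.05, 1 heavy chain was higher and 8 were lower in the ileum. The share of all genes at that unadjusted threshold was not taken, so these counts have no background beside them. Class I genes are near-identical in stretches, and reads may have been assigned to the wrong copy. Fewer heavy chains were called without ileum replicate 1 or without jejunum replicate 2. Each of these fits leaves 1 library in a region, and each also called a smaller share of all genes tested.

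Of the 14 genes for class I folding and peptide loading, all tested, 7 fell in the ileum and 0 rose (median -0.79), where 2.93% of all genes tested fell. Psmb8, a catalytic subunit of the immunoproteasome, was at 22.3, 19.0, 104 and 123 CPM and changed by -2.57 ± 0.17 (adjusted p = 0.0153, edgeR). Psmb10 (-1.94 ± 0.18) and Psmb9 (-1.39 ± 0.15), its other catalytic subunits, fell with it, and so did Tapbpl, a peptide editor (-1.41 ± 0.16). The other 3 that fell were Nlrc5, the class I transactivator, Tap2, part of the peptide transporter, and Psme1, a proteasome activator. The general chaperones Calr, Canx and Pdia3 had changes of 0.24, 0.24 and 0.11, and none was called. At an unadjusted p under 0.05, 9 genes of the list were lower and 0 higher, and the share of all genes at that threshold was not taken. DESeq2 called 9 as lower, in a fit that called 15.7% of all genes in either direction. Fewer genes of the list were called with any 1 library left out, in fits that leave 1 library in a region. All of these fits but that without jejunum replicate 1 also called a smaller share of all genes tested.

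**Figure D4:**
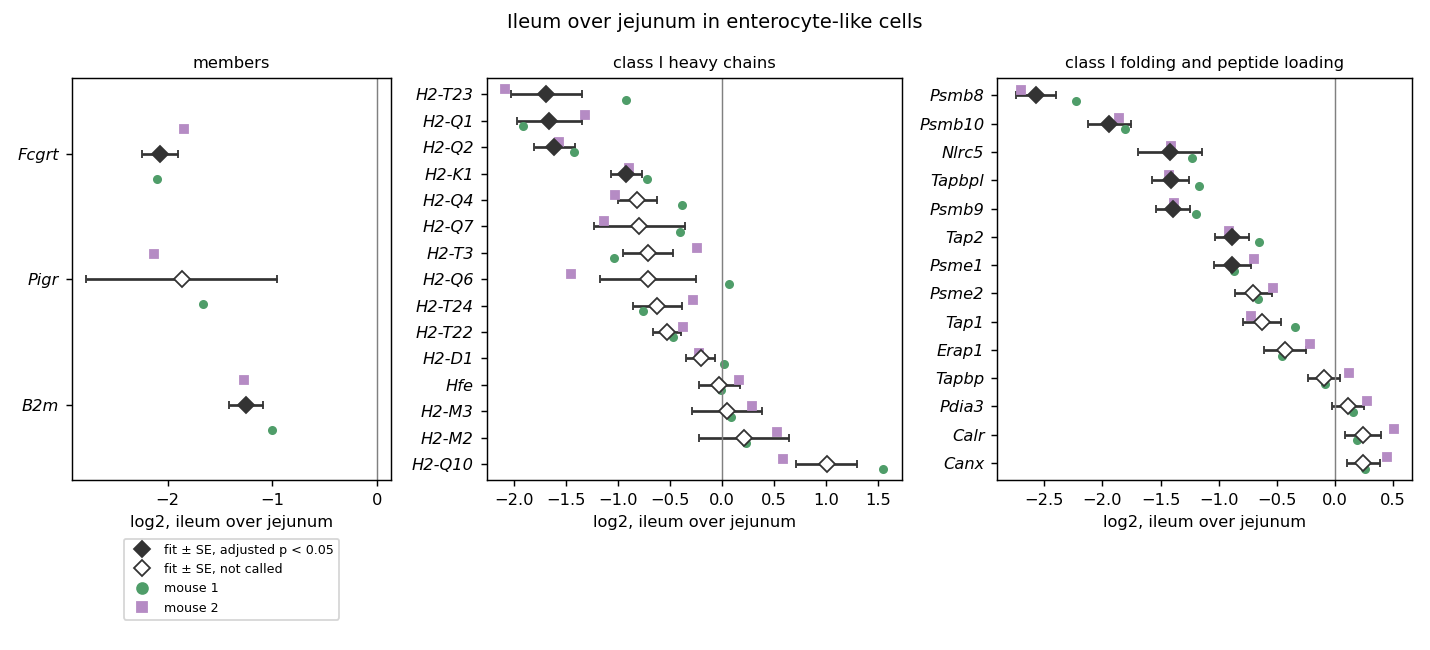
Log2 change of ileum over jejunum in enterocyte-like cells for the 3 members, the 15 tested class I heavy chains and the 14 genes of class I folding and peptide loading (diamonds: edgeR estimate with SE, filled where the adjusted p is under 0.05; circle and square: ratio of CPM within mouse 1 and mouse 2). Values left of 0 are lower in the ileum, as for Fcgrt (-2.07), B2m (-1.25) and Psmb8 (-2.57).

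In stem/progenitor-like cells 1 of 9 heavy chains tested fell (H2-Q2, -1.30 ± 0.17, adjusted p = 0.00493) and 1 of 14 loading genes (Psmb8, -1.34 ± 0.23, adjusted p = 0.0156), with 0 rising in either list. Of all genes tested in this class, 1.15% were called as lower in the ileum. The median changes there were -0.11 and -0.25, against 0.00 over all genes. H2-K1 was at 436 ± 20.4 CPM in the ileum and 456 ± 48.3 CPM in the jejunum of this class (SD, n = 2), a change of -0.11 ± 0.14 (adjusted p = 0.790).

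Few genes of the machinery that carries FcRn and pIgR through the cell passed a test. Of 46 genes for endosomal sorting, recycling and transcytosis (Rab GTPases, myosin V motors, exocyst, clathrin adaptors and others), all were tested in enterocyte-like cells and 0 were called by edgeR, with a median change of 0.07. Of all genes tested there, 6.95% were called. At an unadjusted p under 0.05, 5 were higher and 4 lower, and the share of all genes at that threshold was not taken. DESeq2 as well as the fit with the animal as a block called 3 as higher and 2 as lower. Of all genes tested, DESeq2 called 15.7% and the block 15.1%. The changes ran from -0.69 (Snx4) to 1.5 (Myo5c). In stem/progenitor-like cells 217 of all 12962 genes tested were called as higher in the ileum. Of this list 2 of 45 rose, both of them small GTPases of apical recycling: Rab11a (0.77 ± 0.15, adjusted p = 0.0256) and Rab17 (0.85 ± 0.16, adjusted p = 0.0238). Neither was called without ileum replicate 1, a fit with 1 library in the ileum, nor for clusters without integration when a leading marker was needed. Both fits also called a smaller share of all genes tested, the second 1.66% against 2.82% in the main fit.

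Of 25 cytokine receptors and transcription factors known to regulate Pigr, Fcgrt or B2m, 1 was called in enterocyte-like cells, where 6.95% of all genes were. Il4ra, the receptor chain for IL-4 and IL-13, was at 141, 106, 55.4 and 36.0 CPM and rose in the ileum (1.33 ± 0.23, adjusted p = 0.0359, edgeR). That call was lost without ileum replicate 1, ileum replicate 2 or jejunum replicate 2. Each of these fits leaves 1 library in a region and also called a smaller share of all genes tested. Irf1, which acts on class I and Pigr genes, was at 70.6, 90.5, 118 and 118 CPM, and its change of -0.65 ± 0.18 was not called (adjusted p = 0.0920). With the animal as a block 1 gene of the list rose and 4 fell, in a fit that called 15.1% of all genes.

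Immunoglobulin transcripts were near 0 in these isolated epithelial cells, which does not measure the antibody protein that the receptors carry. The 13 immunoglobulin chain genes together had 43 UMIs in all enterocyte-like cells, and none passed the filter on low counts. Over all kept cells only Ighm, the IgM heavy chain, passed, at 0.0804, 0.158, 0.510 and 0.626 CPM, and it was called as lower in the ileum (-2.26 ± 0.44, adjusted p = 0.0436), beside 9 and 11 immune-like cells kept from the ileum and 19 and 14 from the jejunum, whose part in the result was not tested. Of the 18 other Fc and immunoglobulin receptors 10 were tested. Fcgbp, an IgG Fc-binding protein of mucus, was at 124, 111, 26.5 and 18.9 CPM and rose in the ileum (2.27 ± 0.19, adjusted p = 0.0153). Fcgr4, an IgG receptor of myeloid cells, fell (-1.85 ± 0.37, adjusted p = 0.0468, edgeR) at 0.357, 0.468, 1.11 and 1.68 CPM. Fewer genes of the list were called without ileum replicate 1, ileum replicate 2 or jejunum replicate 2, fits that also called a smaller share of all genes tested. The galectin Lgals3 (0.56) and the transferrin receptor Tfrc (0.77), both known to bind immunoglobulin, were not called.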

How the data were processed

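UMI counts of 4 single-cell libraries were analysed, from ileum and jejunum of the same 2 mice. The authors released epithelium with EDTA and dispase, captured cells by PIPseq and counted reads with PIPseeker (sensitivity 3). The deposited matrices hold raw UMI counts per gene and called cell, and per the labels the build is GRCm39. The annotation is not given in the sources used here. The members and all gene lists were chosen with earlier results of these data known.

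The study's limits were applied: a gene had to be seen in 3 cells or more, and a cell to show between 1000 and 6000 genes with less than 20% mitochondrial UMIs, which left 30522 of 36202 cells. Seurat 5.3.0 (R 4.3.3) took 2000 variable genes, without the 2 members among them, and its CCA integration of the libraries (30 components, resolution 1) gave 23 clusters. Names came from lists of markers: at least 3 markers in 10% or more of cells and over 1 log2 unit above the rest (5 CPM added), or, for enterocyte-like, 3 markers in at least 50% of cells and a mean log2 above -1. Clusters led by another class's markers stayed unnamed. Scrublet (scanpy 1.11.5) marked 7 kept cells, too few to have worked, and leaving out the highest 6% of scores was tried instead.

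Counts were summed per library and class and tested by edgeR 4.0.16 (filterByExpr, TMM, quasi-likelihood, Benjamini-Hochberg), region as the only term. DESeq2 1.42.0 was an alternative. P-values of the region-only fit rest on 2 animals per region, with each gene's spread moderated over all genes. That fit takes the segments of 1 mouse as independent. The fits with a block measure the spread left within animals or libraries. Replicate numbers mark the same animal, as the series design states (correlation of deviations 0.28), so a fit with the animal as a block was run. For levels and correlations per cell, cells were thinned to 2000 UMIs and shallower cells left out (44, 233, 617 and 196 enterocyte-like). Intervals are exact, at 95%, and cover counting error only. Depth ran from 46332925 to 94968453 UMIs in kept cells per library. The edgeR and correlation code was tested on simulated data.

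Named genes were the 3 members, up to 4 called genes per list and direction with the largest change at 20 CPM or more in the higher region, and the 5 genes most like Fcgrt and Pigr by the lowest Spearman correlation over libraries. Others were singled out after their values were seen. Alternatives covered tool, scaling, filter, block, each library left out, equal totals, a mitochondrial share under 10%, doublets, resolution 0.5 and no integration.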

Additional observations from a re-analysis of the deposited data

Results flagged for a closer look

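The regional change differed between the enterocyte-like and the stem/progenitor-like class for each of the 3 genes, by the test of the interaction itself (edgeR, library as a block). The value was -1.40 for Pigr, which was 3.17-fold and 4.38-fold higher in the jejunum of the 2 mice in enterocyte-like cells and 1.23-fold and 1.76-fold in stem/progenitor-like cells. For B2m it was -0.71 (2.00-fold and 2.41-fold against 1.32-fold and 1.52-fold), and for Fcgrt -0.56 (4.30-fold and 3.58-fold against 2.62-fold and 3.01-fold). All 3 were in the same direction in both mice. Carry-over into stem/progenitor-like cells was not taken off. The Fcgrt difference was the least stable of the 3, since it was lost in several alternatives given with the dependence on the processing.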

How the results depend on the processing

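Fcgrt was called as lower in enterocyte-like cells and over all kept cells under every alternative run, from -2.22 to -1.94 in enterocyte-like cells with each library left out and from -2.08 to -2.03 otherwise. The change of B2m in enterocyte-like cells kept its direction throughout (-1.39 to -1.07 with a library left out) and was lost without ileum replicate 1. Over all kept cells B2m was lost with no filter on low counts (-1.13, adjusted p = 0.0506) and without ileum replicate 1 or jejunum replicate 2 (range -1.27 to -1.01). With each library left out, Pigr ranged from -3.49 to -0.58 in enterocyte-like cells and from -2.98 to -0.76 over all kept cells, never called. With the animal as a replicate block Pigr was called in enterocyte-like (-2.0), stem/progenitor-like (-0.59) and all kept cells (-1.81), B2m in stem/progenitor-like cells (-0.54) and Fcgrt in enteroendocrine-like cells (-1.07). The block changed no other call of a member. In stem/progenitor-like cells no filter called Pigr (-0.54) and B2m (-0.54), DESeq2 called B2m (-0.54), Pigr was called without ileum replicate 1 or jejunum replicate 2 (range -1.12 to -0.12), and clusters without integration lost Fcgrt (-0.21), though not once a leading marker was needed (-1.87; chosen after seeing the data).

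In enteroendocrine-like cells Fcgrt was called with no filter (-1.01) and without ileum replicate 1 (range -1.53 to -0.61). There Pigr reversed without ileum replicate 2 (0.29) and without jejunum replicate 1 (0.16), and was called without ileum replicate 1 (-2.56). B2m reversed without ileum replicate 1 (-0.37), without jejunum replicate 1 (-0.34; highest value 0.49) and without the highest doublet scores (-0.24). The interaction for Fcgrt was lost without the highest doublet scores (-0.33) and with clusters without integration where a leading marker was needed (-0.14, chosen after seeing the data), and ranged from -0.69 to -0.39 with a library left out; with clusters without integration alone it was -1.93. For Pigr it was lost at a mitochondrial share under 10% (-1.16, adjusted p = 0.0649) and without integration (-1.16, 0.0741), with -2.13 to -0.69 on leaving out a library, and for B2m that range was -0.85 to -0.57. The cause of each loss was not tested.

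The log2 difference of the Fcgrt to B2m ratio ranged from -0.99 to -0.68 with a library left out. The mean correlation of Fcgrt with B2m moved with depth: at 1000 and 4000 UMIs per cell the ileum gave 0.0808 and 0.210 and the jejunum 0.227 and 0.409. It was 0.160 and 0.365 at resolution 0.5, 0.176 and 0.347 without integration, and 0.288 in the jejunum at a mitochondrial share under 10%. Called genes in the lists, leaving out a library, were 1 to 2 (other Fc receptors), 0 to 5 (class I heavy chains), 3 to 6 (folding and loading), 0 (transcytosis) and 0 to 1 (regulators). With no filter they were 1 (Fc receptors), 2 (heavy chains) and 4 (loading), and 1 Fc receptor was called with thinned sums and at the stricter mitochondrial limit. DESeq2 called 8 heavy chains, 5 transcytosis genes and 4 regulators, and the block called 5 transcytosis genes and 5 regulators. Of all genes tested in enterocyte-like cells, DESeq2 called 15.7% and the block 15.1%. Genes called in enterocyte-like cells ranged from 255 to 3086 over the alternatives. With 2 libraries per region, a change as small as that of B2m in crypt cells lies at the limit of this design, and depth limits any statement on immunoglobulin chains.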
